A study of Mus musculus with 9 samples.

Results

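Interleukin receptor chains decide which cytokines a CD4 T cell can answer, and 10 of them were followed here from naive cells into the lung Th2 cells of acute and chronic airway allergy. The chains are Il4ra, Il2rb, Il2rg, Il7r, Il6ra, Il6st, Il17rb, Il18r1, Il18rap and Il12rb2. They were picked by name, and a chain was read from a probe set that names it and no other gene. This gave 9 measured chains, each with 1 probe set, among 19937 genes. Il2rg is not analysed here. RNA from 9 samples of mouse CD4 T cells was hybridised to Affymetrix Mouse Gene 1.0 ST arrays, with 3 arrays in each of 3 groups.

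Chronic Th2 cells were sorted from perfused lungs at day 104 as CD4+ CD69+ ST2+ cells, from mice that were sensitised and then given 1% ovalbumin aerosol for 12 weeks with 2 challenges a week. Acute Th2 cells were sorted from lungs in the same way at day 29, after 3 consecutive days of 1% ovalbumin aerosol. A tissue digestion of 30 min at 37 °C is given for both Th2 groups and none for naive cells. Both groups of mice had been sensitised by 3 intraperitoneal injections of 10 µg ovalbumin in 1.5 mg alum on days 1, 14 and 21. Naive cells were CD4+ CD44- cells from the spleens of sham-treated mice, also at day 29. Sorted cells of all groups are described as then spending 8 h in culture with antibodies to CD3 and CD28. By these descriptions, every level below was measured after this stimulation. The titles call the arrays of a group biological replicates and do not say whether each is a separate animal or a pool, so a p-value measures the spread between these samples. Tissue, digestion and cell state change together between Th2 and naive cells, as do day and stage between chronic and acute Th2 cells, and their effects cannot be told apart.

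Cytokine receptors of T cells are built from a chain that recognises the cytokine and a chain that passes on the signal, and many signalling chains are shared. IL-2, IL-4 and IL-7 receptors signal with the common gamma chain encoded by Il2rg, IL-6 signals through gp130 encoded by Il6st, and both families act through Janus kinases and STAT factors. Receptors for IL-18 and for IL-25 signal through adaptors that lead to NF-kB, and IL-25 in particular is an epithelial cytokine known to drive type 2 immunity in the airway.

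Promoters are shown for 4 chains on which the results below turn: the neighbouring genes of the IL-18 receptor pair, whose levels differ in naive cells, the IL-25 receptor chain, which was higher in Th2 cells, and the IL-6 receptor alpha chain, which was lower. They are RefSeq sequences of the GRCm38.p6 build, 250 bases before to 50 bases after the start, written along the gene's strand. Of the 9 measured chains, 8 have a promoter in the table used, and Il2rb has none there. Il18r1 lies at chr1:40465302-40465601 (plus strand, 1 of 3 listed starts), Il18rap at chr1:40515112-40515411 (plus strand), Il17rb at chr14:30008847-30009146 (minus strand) and Il6ra at chr3:89913147-89913446 (minus strand). Capitals mark a match to the longer STAT motif (TTC and GAA with 4 bases between them) in Il18r1 and Il18rap, to an AP-1 motif (TGANTCA) in Il17rb and to a GATA motif (AGATAA, read here on the opposite strand) in Il6ra.
Il18r1: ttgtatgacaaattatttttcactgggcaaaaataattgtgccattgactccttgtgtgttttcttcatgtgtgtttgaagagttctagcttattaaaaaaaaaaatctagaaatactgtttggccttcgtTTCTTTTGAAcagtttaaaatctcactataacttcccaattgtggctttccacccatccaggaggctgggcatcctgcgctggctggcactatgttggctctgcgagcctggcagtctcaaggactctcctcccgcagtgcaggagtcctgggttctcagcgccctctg
Il18rap: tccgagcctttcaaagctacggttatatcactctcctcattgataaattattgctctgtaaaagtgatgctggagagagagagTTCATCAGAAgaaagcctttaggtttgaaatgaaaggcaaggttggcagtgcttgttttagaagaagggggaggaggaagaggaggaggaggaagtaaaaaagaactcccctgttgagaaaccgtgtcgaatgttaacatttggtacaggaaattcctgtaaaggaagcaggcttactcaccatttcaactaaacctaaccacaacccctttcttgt
Il17rb: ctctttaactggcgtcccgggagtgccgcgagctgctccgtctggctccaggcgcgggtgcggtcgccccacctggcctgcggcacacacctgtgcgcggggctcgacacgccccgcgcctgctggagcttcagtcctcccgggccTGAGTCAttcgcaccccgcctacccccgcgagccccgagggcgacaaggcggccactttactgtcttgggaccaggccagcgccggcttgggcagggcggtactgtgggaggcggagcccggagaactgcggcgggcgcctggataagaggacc
Il6ra: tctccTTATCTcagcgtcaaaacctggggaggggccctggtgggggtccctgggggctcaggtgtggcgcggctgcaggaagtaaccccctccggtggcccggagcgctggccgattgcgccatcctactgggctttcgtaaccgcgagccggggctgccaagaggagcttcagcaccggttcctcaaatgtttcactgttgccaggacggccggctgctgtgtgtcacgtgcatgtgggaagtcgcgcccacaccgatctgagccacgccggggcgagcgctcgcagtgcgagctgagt

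Motifs were searched on both strands, and each of the 4 windows shown holds 1 match, so no matches overlap there. The longer STAT motif occurs in 6.95% of the 32851 promoters of the table, the shorter one (TTC and GAA with 3 bases between them) in 8.30%, AGATAA in 11.2% and TGANTCA in 7.81%. In Il18r1 the match begins 119 bases upstream of the start, in Il18rap 167 bases, in Il17rb 104 bases and in Il6ra 245 bases. The shorter STAT motif begins 142 bases upstream in Il7r and 123 bases upstream in Il12rb2. It also occurs 219 and 152 bases upstream of the third start of Il18r1. The windows of Il4ra and Il6st hold none of the 4 motifs. A match describes these letters and does not show that a factor binds there.

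Across the 9 chains, the IL-2 receptor beta chain, the accessory chain of the IL-18 receptor and the IL-25 receptor chain were higher in lung Th2 cells than in naive cells, and the gp130 chain was lower, in both stages. The IL-6 receptor alpha chain was lower in chronic Th2 cells. Chronic minus naive, 3 chains were called higher and 2 lower at an adjusted p under 0.05 (limma, adjusted over all genes), against 3.68% of all genes called higher and 4.2% called lower. Acute minus naive, 3 chains were called higher and 1 lower, against 3.67% and 2.2% of all genes. Chronic minus acute, no chain passed this limma test in either direction, and 0.015% of all genes were called higher and 0.015% lower. An unadjusted limma p under 0.05 was reached by 1 chain, and by 2005 genes higher and 957 lower of all 19937. The median difference over the 9 chains was 0.06 on the log2 scale for chronic minus naive, -0.04 for acute minus naive and -0.04 for chronic minus acute, against 0.04, -0.03 and 0.04 over all genes. Both comparisons with naive cells share the 3 naive arrays. In these sorted bulk samples, fewer cells that express a chain and less RNA of it per cell cannot be told apart.

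**Figure D1:**
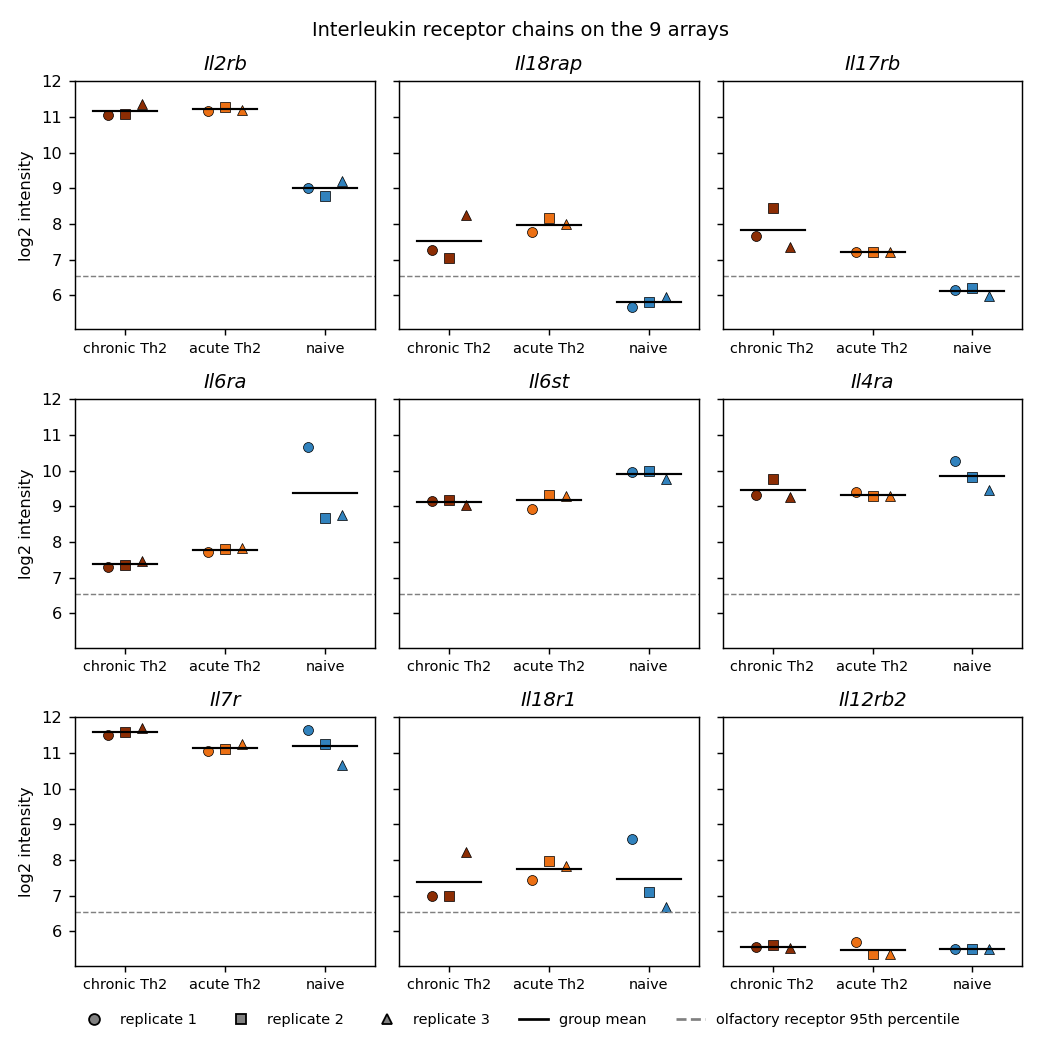
Log2 intensity (vertical axis) of the 9 measured receptor chains on each array, by group from chronic Th2 through acute Th2 to naive; a symbol is 1 array, a bar is the mean of 3 arrays and the dashed line is the 95th percentile of olfactory receptor genes, 6.53. Il2rb, Il18rap and Il17rb lie higher on all 6 Th2 arrays than on the 3 naive arrays, Il6ra and Il6st lie lower, and Il12rb2 stays below the dashed line on all 9 arrays.

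Levels are the deposited log2 intensities. Background was read from the olfactory receptor genes, and the 95th percentile of their mean levels was 6.53. Naive replicate 1 stood apart from the other naive arrays. The growth factor gene Il2, induced by stimulation, had a level of 5.07 there, against 11.33 and 11.27 in naive replicates 2 and 3. Irf4, a transcription factor induced through the T cell receptor, had 6.87 on that array, against 11.73 and 11.71. The labels give 8 h of stimulation for naive replicate 1 too, and whether it was stimulated like the other naive samples cannot be told from them. Correlations between arrays of a group ran from 0.980 to 0.990 in chronic Th2, from 0.987 to 0.996 in acute Th2 and from 0.939 to 0.991 in naive cells. Chronic replicate 3 had an Il2 level of 11.70, against 9.95 and 8.95 in chronic replicates 1 and 2.  Of the surface proteins of the sort, Cd44 was higher in Th2 cells, at 9.18, 9.44 and 9.67 in chronic and 9.18, 9.59 and 9.65 in acute Th2 cells, against 7.61, 7.30 and 7.72 in naive cells. Cd69 was not, at 10.24, 10.22 and 11.14 in chronic, 10.77, 11.34 and 11.23 in acute Th2 and 10.59, 12.08 and 12.20 in naive cells. Without naive replicate 1, of Cd44 and Cd69, 1 was called higher and 1 lower in both stages. Cd4 had levels of 9.70, 9.78 and 9.83 in chronic Th2, 10.35, 10.30 and 10.28 in acute Th2 and 10.81, 9.49 and 9.60 in naive cells. Cd3e, a chain of the T cell receptor complex, had levels of 11.49, 11.53 and 11.49 in chronic Th2, 11.45, 11.41 and 11.51 in acute Th2 and 12.22, 11.44 and 11.77 in naive cells. The ST2 gene Il1rl1 is not analysed here.

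Il2rb encodes the beta chain shared by the receptors of IL-2 and IL-15, and it was higher in Th2 cells of both stages. Its level was 11.06, 11.07 and 11.37 in chronic Th2 cells, 11.16, 11.27 and 11.19 in acute Th2 cells, and 8.99, 8.78 and 9.21 in naive cells. All 6 Th2 arrays lay above all naive arrays, and chronic and acute arrays overlapped. The log2 difference was 2.17 for chronic minus naive (SE 0.13, 4.51-fold, limma adjusted p = 2.1e-05). It was 2.21 for acute minus naive (SE 0.13, 4.63-fold, limma adjusted p = 2.0e-05). Chronic minus acute, it was -0.04, with a 95% interval from -0.33 to 0.25. Natural killer cells also use Il2rb, and of 4 measured markers of these cells 0 had a mean above background in any group, with summed linear intensities of 104 to 109 in chronic Th2, 98.5 to 103 in acute Th2 and 105 to 124 in naive cells.

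Il2ra encodes the alpha chain that completes the high-affinity IL-2 receptor, and its call depended on naive replicate 1. Its level was 13.30, 13.21 and 13.15 in chronic Th2 cells, 13.22, 13.16 and 13.13 in acute Th2 cells, and 9.39, 12.03 and 12.44 in naive cells. Every Th2 array was above every naive array, and naive replicate 1, the array with little Il2, was the lowest. With all arrays the log2 difference was 1.93 for chronic minus naive (limma adjusted p = 0.113) and 1.88 for acute minus naive (limma adjusted p = 0.176). Without naive replicate 1, both were smaller and were called, at 0.98 for chronic minus naive (SE 0.13, limma adjusted p = 0.000973) and 0.94 for acute minus naive (SE 0.13, limma adjusted p = 0.00145). In contrast to Il2ra, Il2rb on naive replicate 1 lay between naive replicates 2 and 3.

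Il7r encodes the alpha chain of the receptor for IL-7, a cytokine that sustains naive and memory T cells. Its level was 11.49, 11.60 and 11.69 in chronic Th2 cells, 11.07, 11.10 and 11.24 in acute Th2 cells, and 11.63, 11.26 and 10.67 in naive cells. The naive arrays spanned the levels of most Th2 arrays, while all chronic arrays lay above all acute arrays. Chronic minus acute, the log2 difference was 0.46 (95% interval -0.02 to 0.93, limma adjusted p = 0.344). Chronic minus naive, it was 0.41 (limma adjusted p = 0.253), and acute minus naive it was -0.05 (limma adjusted p = 0.959). Without naive replicate 1, the difference of chronic minus naive was 0.63 and was called (1.55-fold, limma adjusted p = 0.0281). With chronic replicate 3 left out as well, it was 0.58 and was not called (limma adjusted p = 0.0503).

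Il4ra encodes the alpha chain through which IL-4 and IL-13 act, and it was not called in any comparison. Its level was 9.32, 9.77 and 9.25 in chronic Th2 cells, 9.40, 9.28 and 9.30 in acute Th2 cells, and 10.27, 9.81 and 9.47 in naive cells. The 3 acute arrays lay below all naive arrays, and the chronic arrays overlapped with both. Its log2 difference was -0.40 for chronic minus naive (95% interval -0.87 to 0.07) and -0.52 for acute minus naive (95% interval -0.99 to -0.05, limma adjusted p = 0.245). Without naive replicate 1, these were -0.19 and -0.31, again not called. The messages of its ligands differed far more. Il4 had mean levels of 11.95 in chronic Th2, 11.63 in acute Th2 and 6.06 in naive cells, and Il13 had mean levels of 12.83 in chronic Th2, 13.06 in acute Th2 and 6.33 in naive cells.

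Il21r, which encodes the IL-21 receptor chain and is the coding gene next to Il4ra in the RefSeq order on chromosome 7, went lower. Its level was 7.57, 7.97 and 7.82 in chronic Th2 cells, 7.23, 7.56 and 7.51 in acute Th2 cells, and 9.72, 9.83 and 9.56 in naive cells. No Th2 array reached a naive array. It fell by 1.92 for chronic minus naive (limma adjusted p = 6.32e-05) and fell by 2.27 for acute minus naive (limma adjusted p = 2.25e-05) on the log2 scale. Its ligand Il21 had mean levels of 8.02 in chronic Th2, 8.40 in acute Th2 and 4.84 in naive cells and was called higher in both stages.

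Il6ra encodes the alpha chain that binds IL-6, and it was the chain most affected by naive replicate 1. Its level was 7.30, 7.35 and 7.48 in chronic Th2 cells, 7.71, 7.80 and 7.82 in acute Th2 cells, and 10.66, 8.67 and 8.77 in naive cells. All 3 groups were separate, with chronic below acute and acute below naive arrays. The log2 difference was -1.99 for chronic minus naive (SE 0.45, 3.98-fold lower, limma adjusted p = 0.0319) and -1.59 for acute minus naive (SE 0.45, limma adjusted p = 0.0903). Without naive replicate 1, both were called, at -1.34 for chronic minus naive (SE 0.09, 2.54-fold lower, limma adjusted p = 2.87e-05) and -0.94 for acute minus naive (SE 0.09, 1.92-fold lower, limma adjusted p = 0.000245). With all naive arrays kept, the call for chronic minus naive was lost when any 1 Th2 array was left out, with limma adjusted p of 0.0564, 0.0629 and 0.0623 without acute replicates 1, 2 and 3, and 0.121, 0.101 and 0.0542 without chronic replicates 1, 2 and 3. Chronic minus acute, the difference was -0.40 (95% interval -1.42 to 0.63).

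Il6st encodes gp130, the signalling chain shared by IL-6, IL-11, IL-27 and related cytokines. Its level was 9.15, 9.17 and 9.04 in chronic Th2 cells, 8.94, 9.30 and 9.28 in acute Th2 cells, and 9.97, 9.98 and 9.75 in naive cells. All Th2 arrays lay below all naive arrays, and naive replicate 1 did not stand apart. It had a log2 difference of -0.78 for chronic minus naive (SE 0.12, 1.72-fold lower, limma adjusted p = 0.00543) and -0.73 for acute minus naive (SE 0.12, 1.65-fold lower, limma adjusted p = 0.00786). Chronic minus acute, it was -0.05 (95% interval -0.32 to 0.22). B cells and myeloid cells use Il6ra as well. Of the 5 measured B cell markers, 1 had a mean above background in each group. Of the 7 measured macrophage and monocyte markers, 1 did, and their summed linear intensity was 562 to 585 in chronic Th2, 502 to 544 in acute Th2 and 558 to 606 in naive cells.

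Il17rb encodes the chain that binds IL-25. Its level was 7.67, 8.45 and 7.34 in chronic Th2 cells, 7.22 on each of the 3 acute Th2 arrays, and 6.15, 6.20 and 5.96 in naive cells. The 3 groups did not overlap, and the naive arrays lay below the background of 6.53. The log2 difference was 1.71 for chronic minus naive (SE 0.24, limma adjusted p = 0.00338) and 1.11 for acute minus naive (SE 0.24, limma adjusted p = 0.0293). The naive levels are upper bounds, and with each naive array set to background Il17rb was at least 2.45-fold higher in chronic and at least 1.61-fold higher in acute Th2 cells. Chronic minus acute, it was 0.60 (95% interval 0.06 to 1.15), with a limma adjusted p of 0.325 that misses the threshold. Without chronic replicate 3, it was 0.84 (limma adjusted p = 0.113).

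The 3 acute values of Il17rb are the same to the last deposited digit, so they show no spread. Of the 19937 genes, 177 (0.888%) hold 1 value on all acute arrays, 133 on all chronic arrays and 223 on all naive arrays, and Il17rb is the only one of the 9 chains to do so. The acute minus naive call was lost when some single arrays were left out. The limma adjusted p was 0.0971, 0.106 and 0.106 without acute replicates 1, 2 and 3, 0.0539 without chronic replicate 1, and 0.0630 and 0.0873 without naive replicates 2 and 3. The median level of olfactory receptor genes was 5.67, 5.51 and 5.15 on chronic replicates 1, 2 and 3, between 4.98 and 5.21 on the acute arrays and between 4.94 and 5.10 on the naive arrays, so 2 chronic arrays had higher dim signals, whose part in the Il17rb result was not tested. Group 2 innate lymphoid cells also use Il17rb, and 4 of their markers were measured, with summed linear intensities of 1035 to 1386 in chronic Th2, 1412 to 1650 in acute Th2 and 283 to 458 in naive cells. Of these, Rora and Klrg1, which Th2 cells use too, were called higher in both stages. Kit, at mean levels of 6.38 in chronic Th2, 6.63 in acute Th2 and 6.55 in naive cells, and Arg1, at 6.67 in chronic Th2, 7.30 in acute Th2 and 5.94 in naive cells, were not called. The sort gated on CD4, and the part of innate lymphoid cells in the Il17rb result was not tested.

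Il17ra encodes the partner chain of Il17rb. Its level was 8.17, 8.12 and 8.64 in chronic Th2 cells, 8.54, 8.64 and 8.64 in acute Th2 cells, and between 8.88 and 9.31 in naive cells. Unlike Il17rb, it lay lower on every Th2 array than on every naive array. It fell by 0.75 for chronic minus naive on the log2 scale (limma adjusted p = 0.0246), and its difference of -0.46 for acute minus naive was not called (limma adjusted p = 0.176). The IL-25 gene Il25 had mean levels of 6.63 in chronic Th2, 6.52 in acute Th2 and 6.56 in naive cells, which is near background in all groups.

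Il18rap encodes the accessory chain without which the IL-18 receptor does not signal. Its level was 7.27, 7.06 and 8.25 in chronic Th2 cells, 7.76, 8.17 and 8.01 in acute Th2 cells, and 5.66, 5.80 and 5.95 in naive cells. All naive arrays lay below the background of 6.53 and all Th2 arrays above it. The olfactory 95th percentile of the array itself was 7.14, 6.88 and 6.57 on chronic replicates 1, 2 and 3. The fold bounds below use 6.53, while Il18rap lay close to the first 2 of these percentiles. Its log2 difference was 1.72 for chronic minus naive (SE 0.28, limma adjusted p = 0.00742) and 2.17 for acute minus naive (SE 0.28, limma adjusted p = 0.00220). The naive levels are upper bounds, and set to background they give a level at least 2.00-fold higher in chronic and at least 2.73-fold higher in acute Th2 cells. Chronic minus acute, it was -0.45 (95% interval -1.09 to 0.18, limma adjusted p = 0.432). Chronic replicate 3 lay above all acute arrays, and chronic replicates 1 and 2 below all of them.

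Il18r1 encodes the chain that binds IL-18, and its pattern differed from that of its partner in naive cells. Its level was 6.98, 6.99 and 8.23 in chronic Th2 cells, 7.44, 7.96 and 7.83 in acute Th2 cells, and 8.59, 7.10 and 6.69 in naive cells. Naive replicate 1 was the highest of the 9 arrays and naive replicate 3 the lowest. The log2 difference was -0.07 for chronic minus naive (95% interval -1.21 to 1.07) and 0.28 for acute minus naive (95% interval -0.86 to 1.42), and neither was called. Without naive replicate 1, these were 0.50 and 0.85, again not called (limma adjusted p = 0.379 and 0.198). Among the Th2 arrays, both IL-18 receptor chains were low on chronic replicates 1 and 2, and high on chronic replicate 3. On chronic replicate 1, Il18r1 lay below the olfactory 95th percentile of the array itself, 7.14.

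The stage difference of the IL-18 receptor depended on 2 arrays. With naive replicate 1 and chronic replicate 3 both left out, Il18rap was lower in chronic than in acute Th2 cells by 0.81 on the log2 scale (a difference of -0.81, 1.76-fold, limma adjusted p = 0.0282) and Il18r1 likewise (-0.76, 1.70-fold, limma adjusted p = 0.0485). Il6ra was then also lower (-0.45, 1.37-fold, limma adjusted p = 0.0359). This made 3 chains called lower and 0 higher for chronic minus acute, against 2.61% of all genes called lower and 2.84% called higher in the same fit. Il18r1 was in that fit also higher in acute than in naive cells (0.85, 1.80-fold, limma adjusted p = 0.0157). With chronic replicate 3 alone left out, Il18rap had a difference of -0.81 (limma adjusted p = 0.0783) and Il18r1 of -0.76 (limma adjusted p = 0.411), and neither was called. The pair of arrays was left out because they stood apart in earlier results of these data, so these calls describe the remaining 7 arrays.

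Il18r1 and Il18rap are neighbours on chromosome 1 in the RefSeq order, beside the IL-1 receptor family genes Il1r2, Il1r1, Il1rl2 and Il1rl1. Il1r2, a decoy receptor for IL-1, was higher in Th2 cells. Its level was 10.59, 10.80 and 10.08 in chronic Th2 cells, 9.51, 9.38 and 9.20 in acute Th2 cells, and 5.37, 5.94 and 6.17 in naive cells, with all 3 groups separate. All naive arrays lay below background. Against that bound, Il1r2 was at least 15.5-fold higher in chronic and at least 7.12-fold higher in acute Th2 cells, and both comparisons were called (limma adjusted p = 7.73e-06 for chronic and 4.61e-05 for acute minus naive). Chronic minus acute, its log2 difference was 1.13 and was not called (limma adjusted p = 0.305). Il1rl2, the IL-36 receptor chain, went the opposite way, at 5.66, 5.26 and 5.66 in chronic Th2 cells, 5.86, 6.14 and 5.79 in acute Th2 cells, and 7.45, 7.72 and 7.50 in naive cells, and was called lower in both stages, with Th2 levels below background. Measured receptor genes of this stretch thus rose, fell or were not called.

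Il12rb2 encodes the chain that lets a cell respond to IL-12 and marks the Th1 path. Its level lay between 5.36 and 5.71 on all 9 arrays, below the background of 6.53, so no level can be given beyond that bound. Its log2 difference was 0.06 for chronic minus naive (95% interval -0.18 to 0.30) and -0.04 for acute minus naive (95% interval -0.27 to 0.20). Its partner Il12rb1, shared by the IL-12 and IL-23 receptors, was called higher. Il12rb1 had levels of 9.02, 9.24 and 8.83 in chronic Th2 cells, 9.44, 9.36 and 9.24 in acute Th2 cells, and 7.28, 7.74 and 7.81 in naive cells, a log2 difference of 1.42 for chronic minus naive (limma adjusted p = 0.00104) and 1.73 for acute minus naive (limma adjusted p = 0.000313). Il23r, the IL-23 receptor chain and a neighbour of Il12rb2 on chromosome 6, had mean levels of 5.36 in chronic Th2, 5.47 in acute Th2 and 4.87 in naive cells, all below background.

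**Figure D2:**
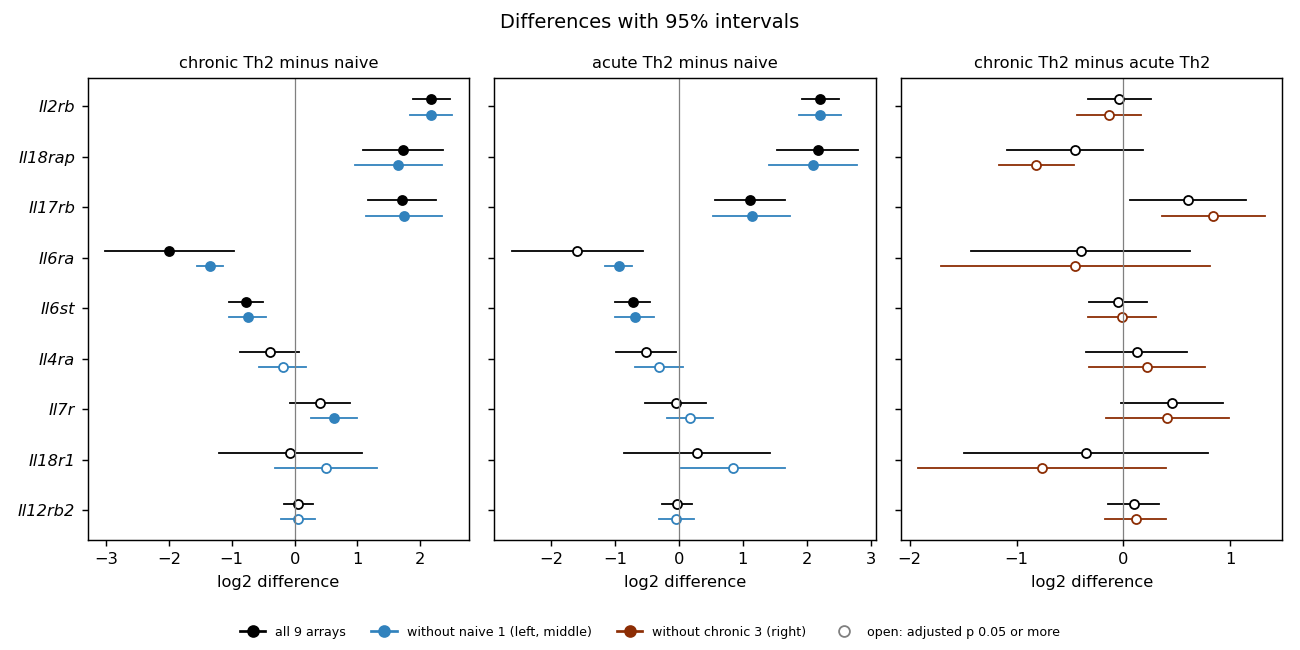
Log2 difference (horizontal axis) of each receptor chain for the 3 comparisons, with 95% intervals; black is the fit on 9 arrays, blue leaves out naive replicate 1 and brown leaves out chronic replicate 3, and open circles have an adjusted p of 0.05 or more. Il6ra moves from -1.99 to -1.34 for chronic minus naive without naive replicate 1 and its interval narrows, while Il2rb stays at 2.17; no circle is filled for chronic minus acute.

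Leaving out naive replicate 1 changed which chains were called. Chronic minus naive, 4 chains were then called higher and 2 lower, against 5.84% of all genes higher and 11.4% lower. Acute minus naive, 3 were called higher and 2 lower, against 6.05% and 6.11% of all genes. Il2rb, Il18rap, Il17rb and Il6st stood on the same side as with all arrays. Il6ra, Il18r1, Il4ra and Il7r had their highest naive level on that array, and Il18rap had its lowest. Tnfrsf9, a costimulatory receptor induced by activation, had 7.32 there, against 11.10 and 10.85 in naive replicates 2 and 3. The part of this array's activation state in the chains' differences was not tested.

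**Figure D3:**
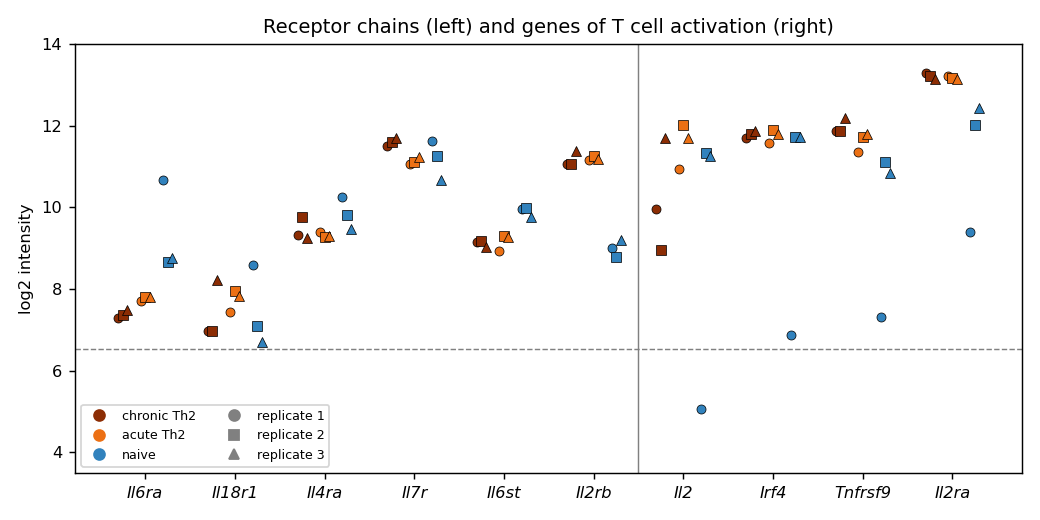
Log2 intensity (vertical axis) of 6 receptor chains to the left of the grey line and of 4 genes of T cell activation to its right; colours are the groups, symbols the replicates and the dashed line is the background of 6.53. Naive replicate 1 (blue circle) is the highest naive array for Il6ra, Il18r1, Il4ra and Il7r, and the lowest for Il2, Irf4, Tnfrsf9 and Il2ra.

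The partner chains of these receptors numbered 14 measured genes. Chronic minus naive, 2 rose (Il12rb1 and Il9r) and 2 fell (Il21r and Il17ra), against 3.68% and 4.2% of all genes. Acute minus naive, the same 2 rose and 1 fell (Il21r), against 3.67% and 2.2% of all genes. The median difference was 0.17 for chronic minus naive and 0.11 for acute minus naive, against 0.04 and -0.03 over all genes. Leaving out naive replicate 1, 3 rose and 2 fell for chronic minus naive, against 5.84% and 11.4% of all genes. For acute minus naive, 4 rose and 1 fell in that fit, against 6.05% and 6.11%. Il9r, the IL-9 receptor chain that pairs with the common gamma chain, had levels of 7.55, 7.62 and 7.68 in chronic Th2 cells, 8.14, 8.15 and 8.49 in acute Th2 cells, and 6.79, 6.69 and 7.05 in naive cells. These groups were separate, with acute Th2 the highest, and the difference of -0.64 for chronic minus acute was not called (limma adjusted p = 0.301). Of the 24 other cytokine receptor chains measured, 2 rose and 1 fell in each comparison with naive cells. The shares of all genes were again 3.68% and 4.2% for chronic, and 3.67% and 2.2% for acute minus naive. The medians of the 24 chains were 0.15 for chronic and -0.01 for acute minus naive. When naive replicate 1 was left out, 4 rose and 2 fell for chronic minus naive, against 5.84% and 11.4% of all genes. For acute minus naive, 4 rose and 1 fell, against 6.05% and 6.11%. Those called with all arrays were Il1r2, Il10ra and Il1rl2. Il10ra, the IL-10 receptor chain, had mean levels of 9.43 in chronic Th2, 9.37 in acute Th2 and 6.66 in naive cells.

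Among 23 ligands, 5 rose and 1 fell for chronic minus naive, and 6 rose and 1 fell for acute minus naive, with medians of 0.20 and 0.05. Of all genes, 3.68% rose and 4.2% fell for chronic, and 3.67% rose and 2.2% fell for acute minus naive. Il13, Il9, Il4 and Il21 rose in both stages, and their mean naive levels of 6.33, 5.56, 6.06 and 4.84 were all below background. With naive arrays below background set to it, chronic Th2 levels were at least 78.1-fold higher for Il13, at least 43.6-fold for Il9, at least 42.9-fold for Il4 and at least 2.80-fold for Il21. Acute Th2 levels were at least 91.5-fold higher for Il13, at least 41.5-fold for Il9, at least 34.3-fold for Il4 and at least 3.66-fold for Il21. Clcf1, a gp130 cytokine, was the ligand that fell. It fell by 1.44 for chronic minus naive (limma adjusted p = 0.000141) and fell by 1.30 for acute minus naive (limma adjusted p = 0.000263). Il6 itself was called higher in acute Th2 cells, at 5.62, 6.74 and 6.30, against 3.97, 3.76 and 3.76 in naive cells, and only 1 of these acute values lies above background. The IL-18 gene Il18 and the IL-7 gene Il7 had mean levels under 5.

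**Figure D4:**
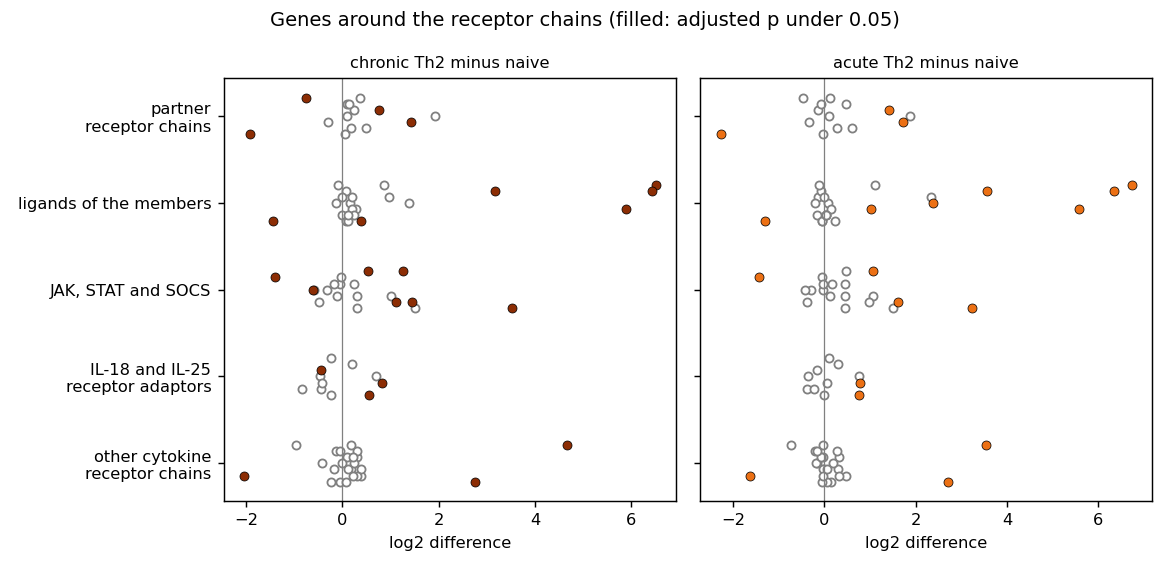
Log2 differences (horizontal axis) of single genes in 5 lists around the receptor chains, for chronic minus naive (left) and acute minus naive (right); a circle is a gene, and filled circles have an adjusted p under 0.05. Most genes of each list are open circles near 0, and the ligands Il13, Il9 and Il4 lie farthest to the right, above 5.

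Downstream of the receptors, 19 genes of Janus kinases, STAT factors and their inhibitors were measured. Chronic minus naive, 5 rose and 2 fell, and acute minus naive 3 rose and 1 fell, with medians of 0.25 and 0.45. Of all genes, 3.68% rose and 4.2% fell for chronic, and 3.67% rose and 2.2% fell for acute minus naive. Socs2, an inhibitor induced by STAT5, had levels of 9.51, 9.97 and 9.75 in chronic Th2 cells, 9.38, 9.50 and 9.49 in acute Th2 cells, and 6.01, 6.72 and 5.95 in naive cells. It was called higher in both stages, and with the 2 naive arrays below background set to it, Socs2 was at least 8.89-fold higher in chronic and at least 7.27-fold higher in acute Th2 cells. Stat5a, which acts after the IL-2 receptor beta chain, was higher by 1.45 for chronic minus naive (limma adjusted p = 0.00861) and by 1.61 for acute minus naive (limma adjusted p = 0.00520). Stat3, which acts after gp130, was higher by 1.26 for chronic minus naive and by 1.07 for acute minus naive. Ptpn6, a phosphatase that restrains cytokine receptors, fell by 1.39 for chronic and fell by 1.44 for acute minus naive. Stat6, which acts after Il4ra, had mean levels of 9.22 in chronic Th2, 9.38 in acute Th2 and 9.80 in naive cells and was not called in either comparison with all arrays. Stat6 on naive replicate 1 was 9.35, against 10.00 and 10.07 in the other naive arrays, and without that array it was called lower, by a difference of -0.81 for chronic minus naive (limma adjusted p = 0.000392) and of -0.66 for acute minus naive (limma adjusted p = 0.00140). The Janus kinase list then had 6 higher and 4 lower for chronic minus naive, against 5.84% and 11.4% of all genes. For acute minus naive, the list had 6 higher and 2 lower, against 6.05% and 6.11%. Its called genes for chronic minus naive numbered 4 without naive replicate 2, acute replicate 2, acute replicate 3 or chronic replicate 2.

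Of 11 adaptors and kinases of IL-18 and IL-25 receptors, 2 rose in each comparison with naive cells, Irak3 and Tab2, and 1 fell for chronic minus naive, Myd88. Without naive replicate 1, 2 rose and 4 fell for chronic minus naive, and 2 rose and 1 fell for acute minus naive, while only 1 adaptor was called for chronic minus naive without naive replicate 3, chronic replicate 1 or chronic replicate 2. For acute minus naive, 1 was called without naive replicate 2, naive replicate 3 or acute replicate 2, and 0 without acute replicate 3. With the replicate number as a block, 6 were called for chronic minus naive. The medians were -0.24 for chronic and 0.06 for acute minus naive. Of all genes, 3.68% rose and 4.2% fell for chronic, and 3.67% rose and 2.2% fell for acute minus naive. Without naive replicate 1, these shares were 5.84% and 11.4% for chronic, and 6.05% and 6.11% for acute minus naive. Irak3, an inhibitor of the pathway, was higher by 0.83 for chronic minus naive and 0.78 for acute minus naive. Myd88, the adaptor of the IL-18 receptor, had levels of 8.45, 8.56 and 8.54 in chronic Th2 cells, 8.75, 8.77 and 8.89 in acute Th2 cells, and 8.86, 8.90 and 9.09 in naive cells. Chronic Th2 arrays were the lowest, and the difference of -0.44 for chronic minus naive was called (limma adjusted p = 0.0217). In the 5 lists, no gene was called for chronic minus acute (limma), where 4 partner chains, 6 ligands, 2 genes of the Janus kinase list, 2 adaptors and 4 other chains had an unadjusted p under 0.05. Of all 19937 genes, 2005 were higher and 957 lower at that unadjusted p.

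The genes most like each chain over the 9 arrays are given as a description, since groups and a shared normalisation shape such correlations. Lilrb4a and Havcr2, which encode inhibitory receptors, were most like Il2rb, with Pearson correlations of 0.999 and 0.998. Rassf2 was most like Il6ra (0.997), followed by Tbc1d2b (0.995) and Prkcq, the T cell kinase PKC-theta (0.995). Nars2 was most like Il6st (0.989), Acvr2a, an activin receptor, most like Il17rb (0.979), and Idi2 most like Il18rap (0.990). The closest genes of Il18r1 and Il4ra were Myl12b (0.969) and Tcea2 (0.955). Il7r had the least close neighbour, Rab32 at 0.879. Tafa4 was most like Il12rb2 (0.975), on levels below background.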

How the data were processed

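Gene expression of 9 samples of sorted mouse CD4 T cells was measured on arrays. The deposited table holds log2 intensities for 34760 probe sets, made by the authors with RMA, per the submitters' processing notes, which also name limma; no version, build or filter is given in the sources used here. Probe sets were named from the platform annotation: 21640 list 1 gene, 1321 several and 11799 none. Each of 19937 genes was read from the brightest probe set naming no other gene. Groups were taken from the titles, and scan batches are not used here.

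The moderated two-sided test of limma 3.58.1 under R 4.3.3 was fitted to the 9 arrays with group as the one term, with p-values adjusted by Benjamini and Hochberg over all genes and called under 0.05. SE is that of the moderated test, and no dim gene was removed. Precision is limited by having 3 arrays a group. The script was tested on simulated data. All measured chains were named, and of each list up to 4 called genes with the largest difference. Other named genes, such as Il2ra, Kit, Arg1, Irf4, Tnfrsf9, Stat6, Clcf1, Il6, Il7, Il18, Il25 and Il23r, and the motifs were chosen after values or sequences were seen. The chains, the 5 gene lists, the background genes and the arrays left out were chosen with earlier results of these data known. Replicate numbers were not taken as pairs in the main fit, although of 9 same-numbered pairs, 6 had correlated deviations above 0.1, the highest 0.572. A fit with the replicate number as a block is among the alternatives.

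Alternatives were each array left out, both arrays that stand apart left out, the replicate block, the 6 arrays compared alone, median centring, quantile normalization, array weights, a trend with robust prior, a filter on dim genes, the mean of a gene's probe sets and all probe sets.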

Additional observations from a re-analysis of the deposited data

How the results depend on the processing

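Of 510 differences of a chain under an alternative, 463 kept their direction and side of the threshold, 13 lost and 14 gained the call, and 20 changed sign, all of them in differences that were not called. Il2rb, Il18rap and Il6st kept their calls against naive cells in all 19 alternatives in both comparisons, and Il17rb did so for chronic minus naive. Dim signals limit Il12rb2 and the naive levels of Il17rb and Il18rap. The causes of the changes below were not tested.

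Counts of chains called lower were 1 to 2 with 1 array left out for chronic minus naive (1 with the 6 arrays compared alone) and 1 to 2 for acute minus naive (2 with naive replicate 1 and chronic replicate 3 both left out, 2 with array weights). For chronic minus acute, both arrays left out gave 3 lower, and array weights gave 3 higher and 1 lower. Of all 19937 genes, 566 were called higher and 521 lower with both arrays left out, and 3973 higher and 2748 lower with array weights. Array weights ran from 0.165 for naive replicate 1 to 8.23 for acute replicate 3, so that fit leans on few arrays.

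With 1 array left out, the called genes for chronic minus naive numbered 4 to 10 of the Janus kinase list (7 with all arrays), 1 to 6 adaptors (3) and 3 to 6 other chains (3), and for acute minus naive 3 to 5 partner chains (3), 4 to 8 of the Janus kinase list (4), 0 to 3 adaptors (2) and 3 to 5 other chains (3). With both arrays left out, chronic minus naive had 5 adaptors and 7 other chains; acute minus naive had 6 partner chains, 8 of the Janus kinase list, 5 adaptors and 7 other chains; and chronic minus acute had 4 partner chains, 4 ligands, 1 adaptor and 1 other chain. With array weights the numbers were 11, 6 and 7 for the Janus kinase list, adaptors and other chains of chronic minus naive, 6, 11, 6 and 9 for partner chains, the Janus kinase list, adaptors and other chains of acute minus naive, and 6, 10, 6, 6 and 12 for partner chains, ligands, the Janus kinase list, adaptors and other chains of chronic minus acute. These 2 fits called many genes of all 19937. For chronic minus naive, both arrays left out gave 2031 higher and 2634 lower, and array weights 2081 and 2594. For acute minus naive, they gave 1308 and 1316, and 1948 and 2071. With 1 array left out, 422 to 1200 of all genes were called higher and 312 to 2274 lower for chronic minus naive. For acute minus naive, these fits called 460 to 1206 higher and 193 to 1218 lower. The 6 arrays compared alone gave 4 of the Janus kinase list and 1 adaptor for chronic minus naive. The replicate block gave 6 adaptors there, 790 genes higher and 1054 lower for chronic minus naive (734 and 837 without it), and changed no call of a chain; 6 of 9 arrays correlated best with an array of their own number.

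These differences changed sign, given here over the fits without 1 array. For chronic minus naive, Il18r1 ran from -0.48 to 0.50 (positive without naive replicate 1 or without chronic replicate 1 or 2). For acute minus naive, Il18r1 ran from -0.10 (without naive replicate 3) to 0.85, Il7r from -0.31 to 0.17 (without naive replicate 1) and Il12rb2 from -0.15 to 0.024 (without acute replicate 2). For chronic minus acute, Il4ra ran from -0.041 (without chronic replicate 2) to 0.22, Il2rb from -0.14 to 0.015 (without chronic replicate 1) and Il6st from -0.17 to 0.010 (without acute replicate 2). With both arrays left out, Il18r1 was 0.083 for chronic minus naive and Il7r was 0.17 for acute minus naive, and with array weights these were 0.23 and 0.28. With quantile normalization, Il12rb2 was -0.028 for chronic minus naive and -0.025 for chronic minus acute, and Il6st was 0.066 for chronic minus acute. With median centring, Il12rb2 was 0.0018 for acute minus naive.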

Other observations

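Genes of T cell receptor induced activation were measured as a list of 14. Its median level was 10.25, 9.98 and 10.77 on the chronic arrays, 10.80, 10.62 and 10.76 on the acute arrays, and 7.80, 10.80 and 11.09 on the naive arrays. Naive replicate 1 was the lowest of the 9. Of the 14 genes, 1 was called higher in each comparison with naive cells and 0 lower (limma). Of all genes, 3.68% and 4.2% were called higher and lower for chronic minus naive, and 3.67% and 2.2% for acute minus naive. At an unadjusted limma p under 0.05 there were 5 of the 14 for chronic and 3 for acute minus naive. Of all 19937 genes, 2558 were higher and 2543 lower at that p for chronic minus naive, and 1596 and 1650 for acute minus naive. In the fit without naive replicate 1, 3 of the 14 were called higher and 6 lower for chronic minus naive, against 5.84% and 11.4% of all genes. For acute minus naive, 4 were called higher and 6 lower, against 6.05% and 6.11%. The median difference of the list was 0.59 for chronic minus naive and 0.49 for acute minus naive with all arrays. Without that array it was -0.69 for chronic and -0.15 for acute minus naive.

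Markers of other cells the sort could hold were at background for some cell types and above it for others. Of the 4 markers of group 2 innate lymphoid cells, 3 had a mean above background in chronic Th2, 4 in acute Th2 and 2 in naive cells. Of 2 CD8 T cell markers, 1 did in each group. This was Cd8b1, at mean levels of 6.72 in chronic Th2, 6.70 in acute Th2 and 7.27 in naive cells, with 7.89 on naive replicate 1. No dendritic cell, lung epithelium, erythroid or natural killer marker had a group mean above background in any group. Of 5 endothelium and stroma markers, 3 had a mean above background in each group, and 0 were called in any comparison. Ccr3, a chemokine receptor of eosinophils that Th2 cells can also carry, had levels of 6.69, 6.71 and 6.82 in chronic Th2 cells, 6.64, 6.56 and 6.53 in acute Th2 cells, and 5.72, 5.58 and 5.70 in naive cells, and was called higher in both stages from naive levels below background (limma adjusted p = 9.16e-05 for chronic and 0.000237 for acute minus naive). It was the only 1 of 4 measured eosinophil markers called. On chronic replicates 1 and 2 it lay below the olfactory 95th percentile of the array itself, 7.14 and 6.88. Gata2, a factor of mast cells and basophils, was higher by 0.37 for chronic minus naive (limma adjusted p = 0.0233). Its level was 6.95, 7.05 and 6.90 in chronic Th2 cells, and 6.60, 6.58 and 6.61 in naive cells, near the background of 6.53. On chronic replicate 1 it lay below that array's olfactory 95th percentile, 7.14. The part of the higher dim signals of chronic replicates 1 and 2 in this difference was not tested. Cd79a, a B cell gene, had a difference of -0.61 for chronic minus naive (limma adjusted p = 0.0459) at levels below background. That call was lost without naive replicate 1 (-0.53, limma adjusted p = 0.0536). Gata2 was the only 1 of 6 mast cell and basophil markers called, and the only 1 with a mean above background. Cd79a was the only 1 of 5 B cell markers called, and the median difference of that list was 0.14 for chronic minus naive.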
